A study of Mus musculus with 6 samples.

Results

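A set of 50 genes of cholesterol and fatty acid metabolism was examined in liver iNKT1 cells with and without the transcription factor Ets1. The genes were taken by symbol from a fixed list of sterol and fatty acid genes. Of these, 49 were among the 12942 genes of the deposited table, and 48 passed the filter on low values, which required a normalised read count of at least 10 in at least 3 of the 6 libraries. The lowest value of any of the 48 in any library was 18.3, so none of them passed through a single group. Scd1 had values of 0.83, 4.26 and 0.05 in controls and 5.04, 6.47 and 26.8 in cKOHet libraries and was not tested, and Fads2 was not analysed here.

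Cells make cholesterol from acetyl-CoA through mevalonate, isoprenoids, squalene and lanosterol. The genes of this route, and many of those for unsaturated fatty acids, are switched on together by the membrane-bound factors SREBP1 and SREBP2, which the escort protein SCAP carries to the Golgi apparatus when sterols are scarce and which INSIG proteins hold back when sterols are plentiful. The nuclear receptors LXR act in the opposite situation, driving efflux and the ubiquitin ligase encoded by Mylip, which lowers lipoprotein uptake. T cells raise sterol and fatty acid synthesis when they grow and divide, and oxidise fatty acids when at rest or as memory cells.

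The cells were iNKT1 cells, a kind of T cell that reads lipids shown by CD1d, taken from mouse liver by their binding of the CD1d tetramer and their YFP. Controls carried Tbx21Cre and Rosa26-YFP+, and the group named cKOHet carried Tbx21Cre, Ets1F/F, Tbx21F/+ and Rosa26-YFP+. There were 3 libraries per group, with replicate numbers 1, 2 and 4. The titles of control replicate 4 and cKOHet replicate 1 read iNKT, and the other titles read iNKT1. Both groups carried the Cre, which is named for Tbx21, the gene of T-bet, and the reporter that YFP reads out. No group had a floxed Tbx21 allele alone, so the loss of Ets1 and the floxed Tbx21 allele cannot be told apart. Ages and sexes were not given in the labels, and the column names of replicate 1 join a pair of codes in each group that the labels do not explain.

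Values are the authors' normalised read counts, which summed to between 4996523 and 5219483 per library, and the depth in reads is unknown. They are not whole multiples of a read, low values differ in offset from library to library, and how the authors adjusted them is not stated in the labels or the table, so values near 0 such as those of Scd1 are not read counts. Ets1 had 7391, 6255 and 7787 normalised counts in the control replicates and 462, 596 and 441 in the cKOHet replicates. Tbx21 had 2434, 2504 and 2765 normalised counts in the control replicates and 2174, 2316 and 2127 in the cKOHet replicates and was not called (adjusted p = 0.196). The defining genes of these cells were high in every library, with a summed level of 8 T cell and iNKT1 markers of 44643 to 48331 in controls and 39128 to 44242 in cKOHet libraries (Zbtb16 called higher, Il2rb lower). Both replicate 4 libraries had Xist at 1.17 or below, against 4337 to 5657 in the other 4.

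In cKOHet cells 12 of the 18 sterol synthesis genes rose and none fell, while none of the 3 fatty acid synthesis and 7 fatty acid oxidation genes passed the test. Over all 11226 genes tested, limma called 21.4% at an adjusted p under 0.05, 11.5% higher and 9.97% lower in cKOHet libraries. Of the 48 members tested, 19 (39.6%) were called higher and 2 (4.17%) lower. In the 4 libraries with high Xist alone the number of members called higher was 15, and that of members called lower 2, with Ebp, Elovl1, Msmo1, Soat1 and Tm7sf2 losing their calls and Fdft1 gaining one. Without the mean-variance trend of limma 9 members were called higher, with Cyp51, Fdps and Elovl1 among the 10 that lost their calls. Fewer genes were also called over the whole table in both of these settings. The groups did not overlap at 28 members (58.3%), against 35.8% of all genes tested. Among the 32 sterol members 17 were called higher and 1 lower, with a median log2 fold change (cKOHet minus control, on the log2(value + 1) scale) of 0.53. Among the 16 fatty acid members tested 2 were called higher and 1 lower, with a median of 0.16. The median over all genes tested was 0.01.

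**Figure D1:**
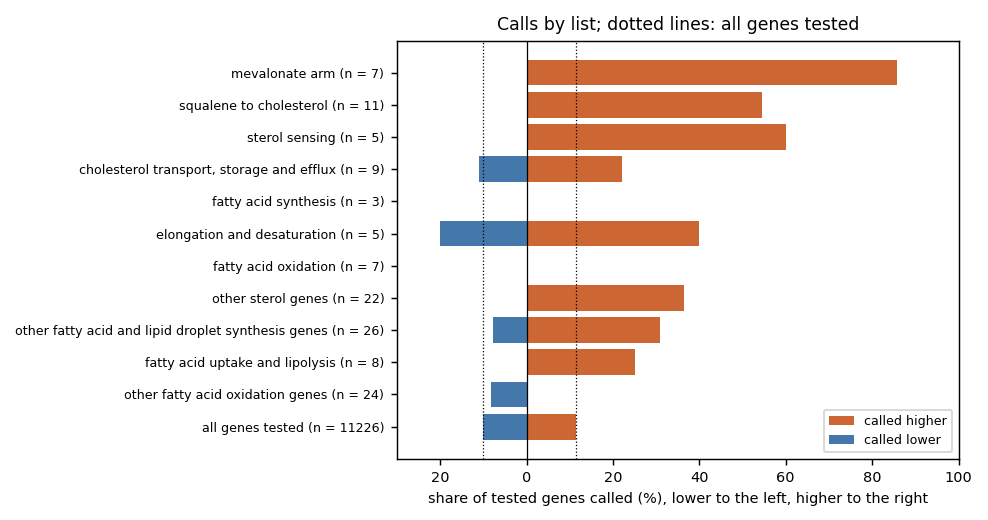
Share of tested genes called higher (right) or lower (left) in cKOHet libraries, in percent, with the number tested in parentheses. Rows are the member roles (without fatty acid binding), 4 lists of other genes of the same pathways and all genes tested. Dotted lines mark the shares over all 11226 genes tested, 11.5% higher and 9.97% lower; the mevalonate arm reaches 85.7%, and neither fatty acid synthesis nor fatty acid oxidation members had a call.

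In the mevalonate arm, which turns acetyl-CoA into the isoprenoid farnesyl diphosphate, 6 of 7 genes rose and the median log2 fold change was 1.2. Hmgcs1, which makes HMG-CoA, had 292, 139 and 210.5 normalised counts in the control replicates and 729, 808 and 496 in the cKOHet replicates. Every cKOHet library lay above every control, and the log2 fold change was 1.69 (SE 0.23, adjusted p = 7.69e-05), a 3.17-fold rise in the mean. The gene (ENSMUSG00000093930) spans 119690379 to 119708260 on chromosome 13 of GRCm38. Mvd, which decarboxylates mevalonate diphosphate, had 126, 146 and 121 normalised counts in the control replicates and 300.1, 355 and 259 in the cKOHet replicates (log2 1.21, SE 0.18, adjusted p = 0.000149). Idi1, the isomerase that makes the allylic isoprenoid unit, was at 54.4, 61.2 and 35.0 against 119.8, 131 and 93.6 (log2 1.201, SE 0.28, adjusted p = 0.00586). Fdps, the farnesyl diphosphate synthase, was at 354, 257 and 150.2 against 551, 517 and 427 (log2 1.05, adjusted p = 0.00474). In each of these genes the groups did not overlap, and for Idi1 and Fdps the lowest library of each group was replicate 4.

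Of the other 3 genes of the arm, Acat2 and Pmvk rose and Mvk was not called. Acat2, the cytosolic thiolase that starts the route, had 92.3, 73.9 and 51.9 normalised counts in the control replicates and 167, 163 and 108 in the cKOHet replicates (log2 1.01, SE 0.27, adjusted p = 0.0128). Pmvk, the phosphomevalonate kinase, was at 56.2, 40.2 and 23.4 against 128, 124 and 57.3 (log2 1.35, SE 0.38, adjusted p = 0.0177), where cKOHet replicate 4 lay close to the highest control. Both calls ended without control replicate 4 (log2 0.79 with an adjusted p = 0.0596 for Acat2, 1.01 and 0.0806 for Pmvk), without cKOHet replicate 1 (0.90 and 0.0582, 1.15 and 0.0842) or without cKOHet replicate 2 (0.92 and 0.0600, 1.17 and 0.0846). Mvk, the mevalonate kinase, was not called (66.4, 81.2 and 75.0 against 78.6, 83.5 and 53.1), with a log2 fold change of -0.07 (95% interval -0.64 to 0.50).

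From squalene to cholesterol, 6 of 11 genes rose, none fell and the median log2 fold change was 0.56. Sqle, the squalene epoxidase and a rate-limiting step, had 106, 63.4 and 58.3 normalised counts in the control replicates and 226, 309.9 and 169 in the cKOHet replicates (log2 1.62, SE 0.27, adjusted p = 0.000422), 3.09-fold higher in the mean. Cyp51, the lanosterol demethylase, was at 304, 189 and 183 against 468, 491 and 332 (log2 0.95, SE 0.21, adjusted p = 0.00349). For both genes control replicate 1 was the highest control and cKOHet replicate 4 the lowest of its group, with no overlap.

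Of the sterol reductases and demethylation enzymes, Tm7sf2 (a sterol C14 reductase) had 18.3, 29.6 and 31.8 normalised counts in the control replicates and 40.3, 77.1 and 64.5 in the cKOHet replicates (log2 1.15, adjusted p = 0.0339). Msmo1, the C4-methyl oxidase, was at 238, 135 and 164 against 265, 349 and 253 (log2 0.71, adjusted p = 0.0243). Hsd17b7, the ketoreductase of the same step, was at 82.1, 67.6 and 64.6 against 146, 168 and 83.3 (log2 0.83, adjusted p = 0.0432). These are small margins: the highest control and the lowest cKOHet library of Msmo1 and Hsd17b7 were nearly level. Ebp, the sterol isomerase, was at 293, 274 and 263 against 328, 437 and 385 (log2 0.46, adjusted p = 0.0398).

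Each of these 4 calls was lost when particular libraries were left out. Tm7sf2 lost its call without control replicate 1 (log2 0.91, adjusted p = 0.124), cKOHet replicate 2 (0.95, adjusted p = 0.15) or cKOHet replicate 4 (1.08, adjusted p = 0.108). Msmo1 lost its call without control replicate 2 (0.53, adjusted p = 0.111), control replicate 4 (0.67, adjusted p = 0.0759) or cKOHet replicate 2 (0.57, adjusted p = 0.12). Hsd17b7 kept its call only when cKOHet replicate 4 was the library left out (otherwise 0.63 to 0.93, adjusted p 0.0512 to 0.194), and Ebp only when cKOHet replicate 1 was left out (otherwise 0.36 to 0.50, adjusted p 0.0681 to 0.169).

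The remaining 5 genes of the branch did not pass. Fdft1, which makes squalene, had 231, 200.5 and 182 normalised counts in the control replicates and 364, 426 and 155 in the cKOHet replicates, so that cKOHet replicate 4 lay below all controls (log2 0.50, 95% interval -0.10 to 1.10, adjusted p = 0.244). Without that library Fdft1 was called (log2 0.95, adjusted p = 0.00203). Nsdhl, the C4 decarboxylase, was at 119.9, 155 and 124 against 239.7, 197 and 158 without overlap (log2 0.56, adjusted p = 0.0651; 0.71 and an adjusted p = 0.0326 without cKOHet replicate 4). Lss, the lanosterol synthase, averaged 199 ± 42.8 and 267 ± 39.5 (adjusted p = 0.118; log2 0.60 and an adjusted p = 0.0481 without control replicate 1). The last enzymes of the route were not called: Sc5d, the lathosterol desaturase, averaged 349 ± 15.0 and 330.4 ± 8.98 (log2 -0.08, 95% interval -0.36 to 0.21), and Dhcr7, the final reductase of the Kandutsch-Russell branch, 299 ± 11.3 and 355 ± 38.5 (log2 0.24, interval -0.06 to 0.55).

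**Figure D2:**
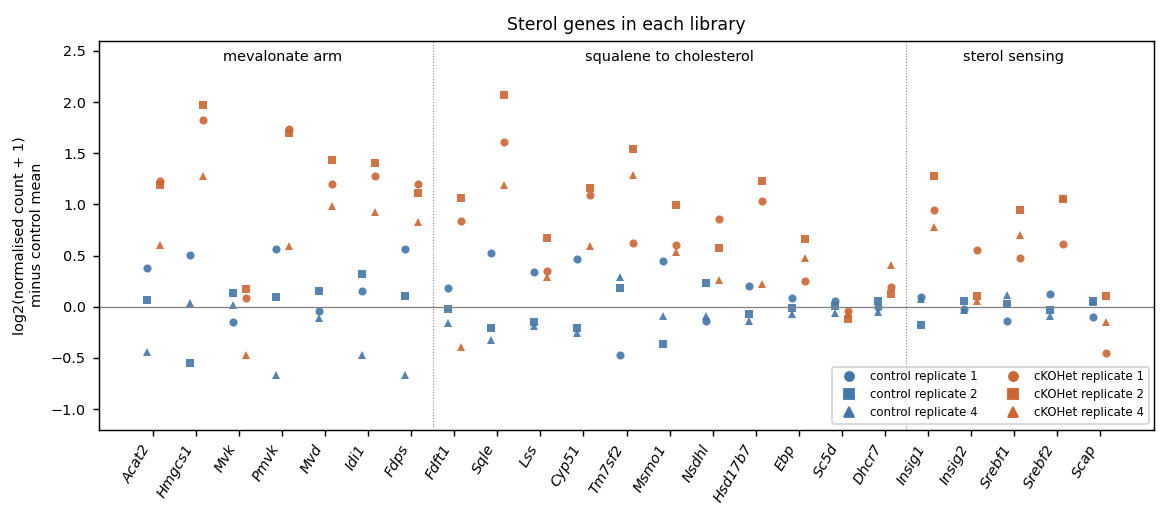
Sterol synthesis and sterol sensing genes in pathway order, with log2(normalised count + 1) minus the control mean on the vertical axis and a point per library, coloured by group and shaped by replicate number. In the mevalonate arm all genes except Mvk have every cKOHet library above every control, and Fdft1, Lss, Sc5d and Scap show no such separation.

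Summed over the 18 synthesis genes, the normalised counts were 3343, 2751 and 2531 in control replicates 1, 2 and 4 and 5080.1, 5594 and 4064 in cKOHet replicates 1, 2 and 4. The replicate 4 libraries were the low ones: cKOHet replicate 4 was the lowest of its group at 14 of the 18 genes, and control replicate 4 at 13. Within replicate numbers the median log2 difference was 0.74, 1.11 and 0.74 for numbers 1, 2 and 4. In RNA from cell populations, more cells of a kind and more RNA per cell cannot be told apart.

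Markers of other cells in the sort were read beside this result. The summed level of 10 macrophage and Kupffer cell markers was 36.6 to 98.3 in controls and 152 to 210.4 in cKOHet libraries. Of 5 tested 2 (Csf1r and Clec4f) were called higher. Both reached 10 in every cKOHet library but not in every control, so they passed the filter through the group where they were high. Their calls add nothing to their levels. Of the 6 dendritic cell markers 3 had values (Xcr1, Itgax and H2-Aa), summing to 110.2 to 158 and 327 to 358, and all 3 were called higher. H2-Aa passed the filter through the cKOHet libraries in the same way, whereas Xcr1 and Itgax were above 10 in every library. Hepatocyte markers summed to 225 to 424 and 271 to 683 over 9 genes, with no call among the 2 tested. Of 6 B cell markers only Ighm had values (1889 to 2063 and 765 to 1049), and it was called lower, as was Pecam1 among 2 endothelial markers with values (sums 172 to 224 and 48.9 to 52.4). Of 6 erythroid markers Hba-a1 alone had values (at most 0.06 and 7.40 to 33.2), and no neutrophil or stellate cell marker had any. Cell cycle markers were not called at any of 8 genes, with sums of 4785 to 7206 and 5133 to 5559. The part of these cells in the sterol result was not tested.

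Among the sterol sensors, 3 of 5 genes rose. Srebf2, which encodes the SREBP that drives cholesterol genes, had 1374, 1228 and 1179 normalised counts in the control replicates and 1921, 2614 and 2622 in the cKOHet replicates (log2 0.91, SE 0.14, adjusted p = 0.000154). Srebf1, which encodes the fatty acid-directed SREBP, was at 809, 907 and 965 against 1242, 1723 and 1447 (log2 0.71, SE 0.13, adjusted p = 0.00127). Insig1, itself an SREBP target and a brake on the pathway, was at 196.5, 162.5 and 193.5 against 356, 445 and 315 (log2 1.0, SE 0.17, adjusted p = 0.000497), 2.02-fold higher in the mean. In all 3 genes every cKOHet library was above every control. Insig2, the SREBP-independent paralogue, averaged 116 ± 3.80 and 139 ± 27.4 (log2 0.24, 95% interval -0.21 to 0.69), and the escort gene Scap 459 ± 26.8 and 414 ± 78.4 (log2 -0.17, interval -0.49 to 0.16), and neither was called.

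**Figure D3:**
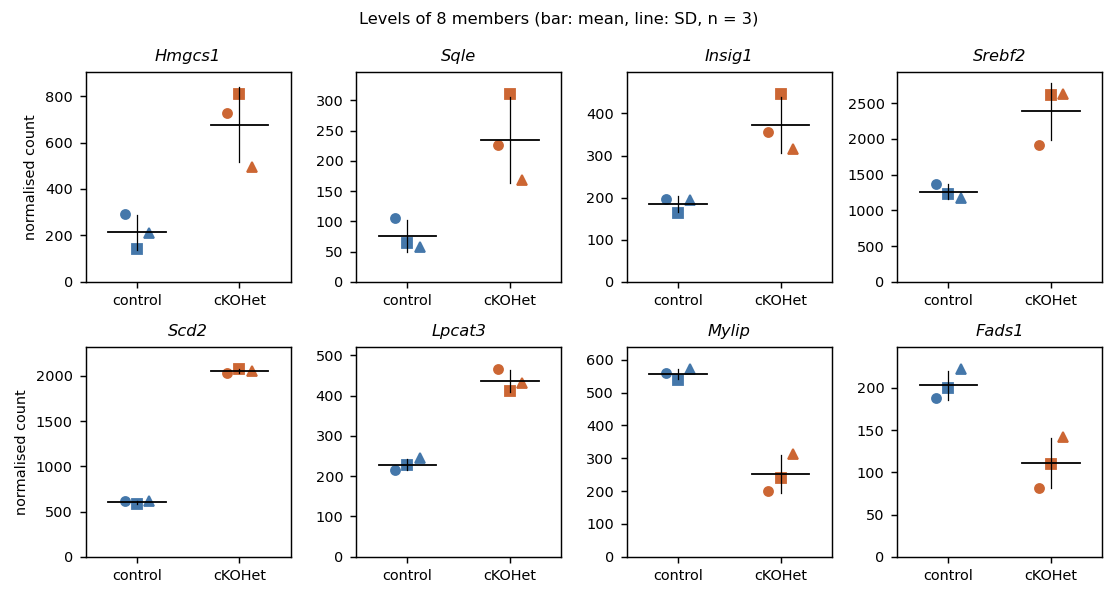
Normalised counts of 8 members in each library, controls on the left and cKOHet on the right of each panel, with the vertical axis from 0, the horizontal bar at the mean and the vertical line 1 SD either way (n = 3). Hmgcs1, Sqle, Insig1, Srebf2, Scd2 and Lpcat3 are higher in every cKOHet library and Mylip and Fads1 lower, and the points of Scd2 lie closest together (603 ± 18.1 and 2053 ± 20.1).

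The promoters of the genes that rose together are shown because SREBPs bind beside the factor NF-Y, whose site is CCAAT. RefSeq windows on GRCm38.p6, from 250 bases before to 50 bases after an annotated start, were matched by symbol for 39 of the 49 genes (48 windows). Capitals mark CCAAT on either strand (ATTGG on the other) and, in Hmgcs1 alone, an exact match to the sterol regulatory element TCACNCCAC. Sites that differ from these letters were not searched for and are not marked. Of the 6 genes shown, Hmgcs1 and Mvd stand for the mevalonate arm, Cyp51 for the later enzymes and Insig1 and Srebf2 for the sensors, all of which rose, and Mylip is a member that fell. Sequences run 5′ to 3′ on the gene's strand.
Hmgcs1 (chr13:119690101-119690400, plus strand): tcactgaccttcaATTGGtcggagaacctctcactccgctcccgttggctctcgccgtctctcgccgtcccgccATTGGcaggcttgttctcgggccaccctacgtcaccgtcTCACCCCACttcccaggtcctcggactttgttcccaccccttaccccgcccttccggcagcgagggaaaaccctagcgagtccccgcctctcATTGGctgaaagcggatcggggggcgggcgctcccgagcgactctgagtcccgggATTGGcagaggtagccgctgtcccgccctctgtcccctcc
Mvd (chr8:122443373-122443672, minus strand): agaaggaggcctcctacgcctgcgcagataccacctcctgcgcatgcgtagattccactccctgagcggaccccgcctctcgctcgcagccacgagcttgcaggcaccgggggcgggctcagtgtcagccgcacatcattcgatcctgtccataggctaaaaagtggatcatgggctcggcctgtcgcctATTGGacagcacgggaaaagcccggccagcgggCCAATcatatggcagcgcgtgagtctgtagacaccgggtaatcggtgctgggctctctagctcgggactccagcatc
Cyp51 (chr5:4104648-4104947, minus strand): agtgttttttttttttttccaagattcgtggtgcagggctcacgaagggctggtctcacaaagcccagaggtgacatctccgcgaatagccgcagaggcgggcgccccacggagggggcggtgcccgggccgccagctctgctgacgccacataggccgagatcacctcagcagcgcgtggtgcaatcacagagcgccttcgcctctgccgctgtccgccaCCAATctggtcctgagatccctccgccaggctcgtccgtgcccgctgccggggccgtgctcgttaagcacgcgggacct
Insig1 (chr5:28071162-28071461, plus strand): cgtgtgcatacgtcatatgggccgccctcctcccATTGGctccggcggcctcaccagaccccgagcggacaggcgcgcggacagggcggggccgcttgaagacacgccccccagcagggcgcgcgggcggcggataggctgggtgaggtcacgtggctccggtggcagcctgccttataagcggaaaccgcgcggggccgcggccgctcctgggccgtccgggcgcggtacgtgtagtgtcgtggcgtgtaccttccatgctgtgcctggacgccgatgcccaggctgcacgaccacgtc
Srebf2 (chr15:82147019-82147318, plus strand): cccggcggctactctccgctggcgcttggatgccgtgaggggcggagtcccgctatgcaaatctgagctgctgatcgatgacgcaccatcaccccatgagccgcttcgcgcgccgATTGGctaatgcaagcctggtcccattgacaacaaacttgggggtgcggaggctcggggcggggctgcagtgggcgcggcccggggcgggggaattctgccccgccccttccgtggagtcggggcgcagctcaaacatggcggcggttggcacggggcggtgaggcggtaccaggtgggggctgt
Mylip (chr13:45389492-45389791, plus strand): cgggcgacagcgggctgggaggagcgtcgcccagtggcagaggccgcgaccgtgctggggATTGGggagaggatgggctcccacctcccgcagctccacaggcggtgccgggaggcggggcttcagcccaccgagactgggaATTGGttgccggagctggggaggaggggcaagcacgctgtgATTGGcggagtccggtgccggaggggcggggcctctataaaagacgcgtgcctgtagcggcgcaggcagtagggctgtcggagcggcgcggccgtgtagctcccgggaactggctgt

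CCAAT was present in 16 of 20 windows (80%) of members called higher and in 11 of 27 (40.7%) of members not called, against 37.4% of all 32851 windows and 38.1% of the windows of genes tested. Counted by gene, 14 of 15 sterol synthesis genes with a window held CCAAT, and 9 of the 10 of them called higher. Mvk, Nsdhl, Lss, Sc5d and Dhcr7, which were not called, all held CCAAT. The only window of a gene called lower, that of Mylip, also held it. The sterol element TCACNCCAC, searched as these letters on both strands, was in 1 of the 20 windows (5.0%), that of Hmgcs1, in none of the 27, and in 1.24% of all windows. The Ets site CCGGAAGT was in 0 of 20 windows of members called higher and 3 of 27 of those not called (Cpt2, Insig2 and Nr1h2), against 9.19% of the windows of genes tested. The LXR direct repeat with 4 spacer bases was in none of the members' windows and in 0.0152% of all windows. It was also in none of the 10535 windows of genes tested, so its absence from the members says nothing about them. These shares are descriptions of letters in a window, with no test, and nothing was measured about binding.

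Cholesterol transport, storage and efflux genes moved in both directions, with 2 of 9 called higher, 1 lower and a median log2 fold change of -0.02. Mylip, a ubiquitin ligase that lowers lipoprotein uptake and a known LXR target, had 560.5, 539 and 571 normalised counts in the control replicates and 201, 241 and 313 in the cKOHet replicates. All cKOHet libraries were below all controls, with a log2 fold change of -1.16 (SE 0.16, adjusted p = 8.08e-05) and a mean 2.21-fold lower. The gene (ENSMUSG00000038175) spans 45389742 to 45412022 on chromosome 13. Lpcat3, a phospholipid acyltransferase that places polyunsaturated chains into membranes, was at 216, 227 and 244 against 465, 412 and 432 (log2 0.93, SE 0.14, adjusted p = 0.000188). Lpcat3 is known as an LXR target as well, and it moved opposite to Mylip.

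Abca1, Abcg1 and Nr1h2 were not called. Abca1, the cholesterol exporter, had 128, 156 and 224 normalised counts in the control replicates and 112, 121 and 155 in the cKOHet replicates (log2 -0.36, 95% interval -0.85 to 0.13, adjusted p = 0.311). Abcg1, which also exports sterols, was at 349, 289 and 494 against 198, 295 and 503 (log2 -0.25, interval -0.83 to 0.32), with replicate 4 the highest in each group. Nr1h2, which encodes LXR beta, was not called (492 ± 48.2 and 485 ± 34.1, log2 -0.02, interval -0.30 to 0.26).

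Soat1, which esterifies cholesterol for storage, had 320.3, 352 and 274 normalised counts in the control replicates and 383, 476 and 421 in the cKOHet replicates. It was called at the margin (log2 0.44, SE 0.15, adjusted p = 0.0493) and lost the call without control replicate 1 (0.45, adjusted p = 0.102), control replicate 4 (0.34, adjusted p = 0.185), cKOHet replicate 2 (0.36, adjusted p = 0.182) or cKOHet replicate 4 (0.44, adjusted p = 0.0878), and also with a pseudocount of 0.5 (adjusted p = 0.0503). The lysosomal cholesterol exporters were not called: Npc1 averaged 514 ± 114 and 565 ± 151 and Npc2 1099 ± 112 and 1339.8 ± 139.7 (log2 0.29, adjusted p = 0.125), the latter without overlap. Stard4, a cytosolic sterol carrier whose gene is an SREBP target, averaged 459 ± 123 and 420.2 ± 48.4 (log2 -0.10, 95% interval -0.49 to 0.30).

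The 3 genes of the main fatty acid synthesis route were not called. Acly, which makes cytosolic acetyl-CoA from citrate, had 1990.2, 1853 and 2020.0 normalised counts in the control replicates and 1872, 2060.4 and 2330.2 in the cKOHet replicates (log2 0.09, 95% interval -0.16 to 0.34). Acaca, the acetyl-CoA carboxylase, was at 261, 299.6 and 234 against 294, 263 and 452 (log2 0.31, interval -0.10 to 0.72), with cKOHet replicate 4 apart from the rest. Fasn, the fatty acid synthase, was at 1395, 1334 and 1623 against 1088, 1240.1 and 1296, lower in every cKOHet library but short of the threshold (log2 -0.26, SE 0.12, adjusted p = 0.151).

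Among desaturases and elongases, 2 of 5 tested genes rose and 1 fell. Scd2, a stearoyl-CoA desaturase that makes monounsaturated fatty acids, had 612, 582 and 615 normalised counts in the control replicates and 2032, 2073 and 2053 in the cKOHet replicates. The libraries of each group were nearly identical, and the log2 fold change of 1.77 (SE 0.11, adjusted p = 2.22e-08) was the largest among the members tested, a 3.40-fold rise. The gene (ENSMUSG00000025203) spans 44293674 to 44306864 on chromosome 19. Per kilobase of exon, the level of Scd2 went from 110.4 to 376, close to that of Acly (370.2 and 395), which had the highest level per kilobase of all members in both groups. Scd1, its paralogue, had the lowest level per kilobase (0.35 and 2.61). Scd1 and Scd2 transcripts share a stretch of 623 bases at 95.5% identity, so some reads could be split between the 2 genes.

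Fads1, the delta-5 desaturase of polyunsaturated fatty acids, had 187, 199 and 222 normalised counts in the control replicates and 81.6, 110.2 and 142 in the cKOHet replicates (log2 -0.89, SE 0.22, adjusted p = 0.0079). Every cKOHet library was below every control. Fads1 is also known as an SREBP target. Elovl1, which elongates saturated and monounsaturated very long chains, was at 357, 393 and 321 against 449, 570.1 and 608 (log2 0.59, SE 0.15, adjusted p = 0.00938). In the 4 libraries with high Xist alone Elovl1 was not called (log2 0.43, adjusted p = 0.111). Elovl6, which takes palmitate to stearate, was at 112, 99.2 and 80.4 against 176, 150.2 and 127 and just missed the threshold (log2 0.63, adjusted p = 0.0534; 0.75 and an adjusted p = 0.0442 without cKOHet replicate 4). Elovl5, the elongase of polyunsaturated chains, averaged 604 ± 27.4 and 635 ± 68.0 (log2 0.07, 95% interval -0.20 to 0.34). Fabp5, an intracellular fatty acid carrier, averaged 46.1 ± 18.5 and 74.5 ± 18.1 (log2 0.72, SE 0.33, adjusted p = 0.148).

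None of the 7 fatty acid oxidation genes was called, and their median log2 fold change was 0.10 (0.04 without control replicate 2, 0.20 without control replicate 4, 0.24 without both replicate 4 libraries). Cpt1a, the outer mitochondrial carnitine transferase that limits the entry of long chains, had 691, 402 and 577 normalised counts in the control replicates and 385, 424 and 552 in the cKOHet replicates (log2 -0.28, 95% interval -0.68 to 0.12, adjusted p = 0.345). Cpt2, its inner membrane partner, averaged 95.3 ± 25.8 and 82.5 ± 6.18 (log2 -0.17, interval -0.72 to 0.38). Of the acyl-CoA dehydrogenases, the medium-chain gene Acadm was at 149, 102 and 193 against 194, 211 and 226, without overlap but not called (log2 0.55, adjusted p = 0.0944; 0.76 and an adjusted p = 0.0285 without control replicate 4). The long-chain gene Acadl averaged 309 ± 26.2 and 372 ± 49.2 (log2 0.26, interval -0.06 to 0.58), and the very long-chain gene Acadvl 343 ± 35.9 and 350.3 ± 54.5 (log2 0.02, interval -0.30 to 0.35). Of the trifunctional protein genes, Hadha averaged 765 ± 97.7 and 887 ± 91.4 (log2 0.22, interval -0.06 to 0.50). Hadhb averaged 591 ± 74.8 and 631 ± 27.8 (log2 0.10, interval -0.17 to 0.38). The intervals of both genes ended at or below 0.50.

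**Figure D4:**
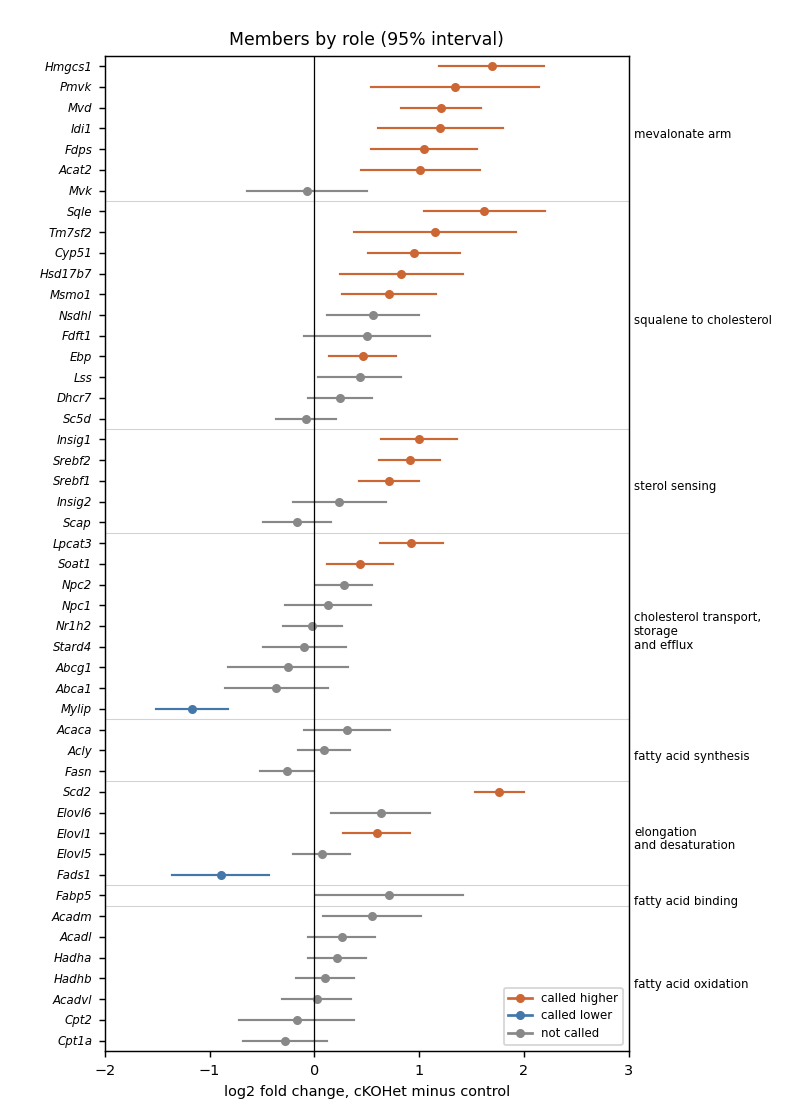
Log2 fold change of the 48 members tested, cKOHet minus control, grouped by role, with limma's 95% interval as a line; orange marks genes called higher, blue genes called lower and grey genes not called. Values run from -1.16 (Mylip) to 1.77 (Scd2), and the fatty acid oxidation genes lie between -0.28 and 0.55.

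Other genes of the same pathways, from lists that hold no member, gave 18 calls higher (22.5%) and 4 lower (5.0%) among 80 tested of 105 listed. The shares over all genes tested were 11.5% higher and 9.97% lower. The 18 include Elovl7 and Agpat4, which passed the filter through the cKOHet libraries. Of 22 other sterol genes, 8 (36.4%) rose and none fell (median log2 0.31, or 0.20 with a filter value of 50). Abca7, a lipid transporter of the ABC family, had 706, 713 and 806 normalised counts in the control replicates and 1226, 1246 and 1213 in the cKOHet replicates (log2 0.73, SE 0.11, adjusted p = 0.000234). Every cKOHet library of Abca7 was above every control.

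Of 26 other genes of fatty acid and lipid droplet synthesis, 8 (30.8%) rose and 2 (7.69%) fell (median log2 0.17). Of these 8, Elovl7 and Agpat4 reached 10 in all 3 cKOHet libraries and in at most 1 control, so they passed the filter through the group where they were high; without both, 6 of 24 rose and 2 fell (median log2 0.14). Plin3, a lipid droplet coat protein, had 84.8, 44.4 and 109 normalised counts in the control replicates and 297, 276 and 310.0 in the cKOHet replicates (log2 1.97, adjusted p = 6.82e-05), and Plin2, the coat protein most used as a droplet marker, was at 219, 193 and 154 against 409, 352 and 542 (log2 1.19, adjusted p = 0.000243). Elovl7, an elongase, had 2.21 to 3.56 normalised counts in the control replicates and 59.4, 22.3 and 29.1 in the cKOHet replicates, given as levels only. Dgat1, which makes triglycerides, was not called (log2 -0.60, adjusted p = 0.0817) and was chosen after its values were seen. Those that fell were Acsl1, an acyl-CoA synthetase (58.7 ± 27.1 and 19.7 ± 9.57, log2 -1.51, adjusted p = 0.0289, with overlap between the groups), and Agpat3, an acyltransferase of phospholipid synthesis (1095 ± 89.8 and 829 ± 102, log2 -0.41, adjusted p = 0.031). Both lost their calls without control replicate 2 (log2 -1.22 with an adjusted p = 0.134 for Acsl1, -0.34 and 0.129 for Agpat3), control replicate 4 (-1.36 and 0.114, -0.42 and 0.0683), cKOHet replicate 1 (-1.54 and 0.0559, -0.37 and 0.0885) or cKOHet replicate 4 (-1.14 and 0.123, -0.34 and 0.092).

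Of 8 genes of fatty acid uptake and lipolysis, 2 (25.0%) rose, against 11.5% of all genes tested, and 6 were not called. Among the 6 were the lipase genes Pnpla2 (log2 -0.14) and Lipe (log2 0.14) and the lipase inhibitor gene Hilpda (log2 -0.83, adjusted p = 0.196). These 3 were chosen after their values were seen. Mgll, the monoacylglycerol lipase, had 54.3, 38.1 and 54.0 normalised counts in the control replicates and 101, 154 and 172 in the cKOHet replicates (log2 1.51, adjusted p = 0.0009), and Abhd5, the coactivator of adipose triglyceride lipase, was at 47.0, 45.4 and 41.3 against 93.7, 92.8 and 85.3 (log2 1.01, adjusted p = 0.0108). Of 24 other fatty acid oxidation genes, none rose and 2 fell (8.33%, against 9.97% of all genes tested), with a median log2 of 0.04. Hadh, a short-chain hydroxyacyl-CoA dehydrogenase, averaged 309 ± 27.95 and 209.6 ± 25.4 (log2 -0.56, adjusted p = 0.0201), and Ppard, a nuclear receptor that activates oxidation genes, 151 ± 5.02 and 91.8 ± 11.3 (log2 -0.72, adjusted p = 0.0207). Without control replicate 1, control replicate 4 or cKOHet replicate 4 both lost their calls (log2 -0.50, -0.55 and -0.48 with adjusted p = 0.0936, 0.0604 and 0.0616 for Hadh, and -0.72, -0.69 and -0.62 with adjusted p = 0.0613, 0.0686 and 0.0588 for Ppard), and Hadh also without cKOHet replicate 2 (-0.55, adjusted p = 0.0557).

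Some members share sequence with other genes, and the strand setting of the counting is not given in the sources used here. Exons of Fdft1 overlap those of Ctsb on the opposite strand by 774 bases (18.3% of Fdft1 exon length), and Ctsb, a lysosomal protease gene, averaged 2495 ± 173 and 2705 ± 287 normalised counts. Exons of Acadvl overlap Dvl2 on the opposite strand by 42.9% of their length, those of Lpcat3 overlap Emg1 by 10.2%, and those of Tm7sf2 overlap Vps51 on the same strand by 12.1%. Exons of Fdps overlap those of Gm43738, which had no values here, on the same strand by 1124 bases (26.7%). Opposite-strand overlaps with other genes were 12.1% for Hmgcs1 and 13.2% for Scap. Acat2 has a near copy, Acat3 (97.7% identity over 1477 bases), which was at most 9.41 in any library. Idi1, Fdps, Fdft1, Fabp5, Elovl6, Acaca, Acadm and Hadhb have processed pseudogenes at or above 95% identity, so their levels are uncertain to that extent.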

How the data were processed

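Expression was measured by RNA sequencing in 6 libraries of isolated mouse liver iNKT1 cells, 3 control and 3 cKOHet. The libraries came from Nugen Ovation Ultralow kits, per the labels' protocols. The table that the authors deposited gives a signal per Ensembl gene, a normalised HTSeq count by its name. Trimmomatic 0.33, STAR, HTSeq 0.6.1, DESeq2 and the mm10 build appear in the submitters' processing notes; their settings and the annotation are not given in the sources used. The values are not whole numbers, so no count model was run, and the test planned for such values was used.

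Symbols, positions and exon lengths came from GENCODE M21 on GRCm38, which named 12864 of 12942 identifiers. Values were taken as log2(value + 1), so fold changes of low genes are understated. Genes at or above 10 in at least 3 libraries (11226) were fitted together with limma 3.58.1 in R 4.3.3 with a mean-variance trend, and p-values were Benjamini-Hochberg adjusted over all of them. The threshold for a call was an adjusted p of 0.05, and intervals are 95%. Levels are mean ± SD, n = 3. The procedure was tested on simulated data first. The labels name 3 independent replicates but no animals, so the spread behind each p-value is that between libraries. Part of that spread may be technical, but Xist set replicate 4 apart from replicates 1 and 2 in both groups. Whether replicates 1 and 2 came from different animals is not given. An exact permutation test of 3 against 3 cannot fall below 0.1.

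Each called member is given with its value in every library and the others by values or means. From each other pathway list up to 3 called genes per direction with the smallest adjusted p are named. Some of these genes are not reported here. The members and lists were chosen with earlier results of these data known. Near copies were transcripts with at least 95% identity over 200 bases (blastn).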

Additional observations from a re-analysis of the deposited data

How the results depend on the processing

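A total of 19 alternatives was run, with the libraries of high Xist alone and the medians by role added after the data were seen. Of the 21 called members 11 kept their call in every alternative (Hmgcs1, Mvd, Idi1, Sqle, Insig1, Srebf1, Srebf2, Lpcat3, Scd2, Mylip and Fads1), and no member reversed; of 27 members not called, 5 were called in at least 1. The number of members called higher, 19 as reported, was 9 without the mean-variance trend, 12 at a threshold of 0.01, and 12 to 19 when each replicate was left out in turn (12 without cKOHet replicate 2). The number of members called lower was 2 in every alternative. The number of all genes called fell in these settings as well. It was 2407 as reported, 1670 without the mean-variance trend and 1476 at a threshold of 0.01. When each replicate was left out in turn it was 1883 to 2207 (1931 without cKOHet replicate 2). With the replicate block the members called higher were again 19, with Ebp lost (adjusted p = 0.054) and Elovl6 gained (adjusted p = 0.0459). Deviations from the group means correlated at 0.09, 0.09 and 0.05 within replicate numbers 1, 2 and 4. These correlations are low, but each library correlated best with its own number. The main fit did not use the replicate numbers. The depth in reads is unknown, which limits what can be said of low genes such as Scd1.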
